A study of Mus musculus with 6 samples.

Results

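The miR-26 family of the mouse brain was described in small RNAs bound to Argonaute, the protein that loads a small RNA and is guided by it to mRNAs. Its members are the 5 mature miRNAs cut from the hairpins of Mir26a-1, Mir26a-2 and Mir26b: mmu-miR-26a-5p, mmu-miR-26b-5p, mmu-miR-26a-1-3p, mmu-miR-26a-2-3p and mmu-miR-26b-3p. They were chosen by name, as the rows of the deposited read table whose miRNA annotation is a member, a rule that uses no measured value. The rule took 1232 of the 143934 read sequences in the table and 5 of its 1101 miRNA labels, and none of these rows carried a second label. mmu-miR-26a-5p held 1006 of the read sequences and mmu-miR-26b-5p held 196. The 3p labels mmu-miR-26a-1-3p, mmu-miR-26a-2-3p and mmu-miR-26b-3p held 6, 7 and 17. Both groups were BL6 mice, described in the study's methods as C57BL/6J males with no transgene or treatment. The young group (2M, age 2 months) and the old group (18M, age 18 months) each had 3 libraries of combined cortex and hippocampus. Argonaute complexes were pulled down with a peptide of GW182, a protein that binds Argonaute, and the RNA that came with them was sequenced (Ago-RP-Seq). The labels do not say whether each library was a separate animal, so p-values measure the spread between these libraries.

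A miRNA hairpin yields a 5p and a 3p arm, and Argonaute usually keeps one of them. The kept strand pairs with target mRNAs mainly through its seed, bases 2 to 8 from the 5′ end, so miRNAs that share a seed share most predicted targets. The miR-26 hairpins are known for lying inside introns of the Ctdsp genes. These genes code for small phosphatases of the RNA polymerase II tail that work with REST, a repressor of neuronal genes, and miR-26b is known to act on Ctdsp2 mRNA while neurons differentiate. After processing, enzymes can add U or A to the 3′ end of a miRNA, and miR-26a is known to receive such added U.

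The mature sequences show how the members divide into seed groups. They are RefSeq sequences on GRCm38.p6, written 5′ to 3′ with the seed in capitals:
mmu-miR-26a-5p: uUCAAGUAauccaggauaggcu
mmu-miR-26b-5p: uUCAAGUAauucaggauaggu
mmu-miR-26a-1-3p: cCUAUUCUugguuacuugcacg
mmu-miR-26a-2-3p: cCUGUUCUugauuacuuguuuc
mmu-miR-26b-3p: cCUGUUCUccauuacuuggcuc

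The 5p members share the seed UCAAGUA. Over the 21 positions compared they differed at 2, C11U and C21U, where the miR-26a base is given first, then the position from the 5′ end, then the miR-26b base. mmu-miR-26a-2-3p and mmu-miR-26b-3p share the seed CUGUUCU although they come from different hairpins, and they differed at 4 of 22 positions, all outside the seed. mmu-miR-26a-1-3p has the seed CUAUUCU. It differed from mmu-miR-26a-2-3p at 6 of 22 positions, one of them, A4G, inside the seed.

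The hairpins show which arm lies where and which genes give the same product. They are RefSeq hairpins on GRCm38.p6, all on the plus strand, with the mature arms in capitals:
Mir26b, chr1:74394310-74394394: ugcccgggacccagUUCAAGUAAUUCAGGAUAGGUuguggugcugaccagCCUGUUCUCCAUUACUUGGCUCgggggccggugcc
Mir26a-1, chr9:119031796-119031885: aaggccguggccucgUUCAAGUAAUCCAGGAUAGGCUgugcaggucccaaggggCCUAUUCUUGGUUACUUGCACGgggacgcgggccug
Mir26a-2, chr10:126995530-126995613: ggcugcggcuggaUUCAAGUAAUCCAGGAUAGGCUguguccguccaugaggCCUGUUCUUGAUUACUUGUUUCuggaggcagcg

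By the GENCODE annotation of GRCm38, each hairpin lay on the sense strand of a protein-coding Ctdsp gene. Mir26b lay in an intron of both Ctdsp1 transcripts that span it, intron 4 in 1 of the 2, with no exon of that gene over it. Mir26a-1 lay in an intron of all 3 spanning Ctdspl transcripts, intron 5 in 2 of the 3, also with no exon over it. Mir26a-2 lay in intron 5 of the 1 Ctdsp2 transcript that spans it, where 2 annotated exons of other transcripts touched the hairpin. The 5p arms of Mir26a-1 and Mir26a-2 are identical, so a mmu-miR-26a-5p read cannot be traced to one of these genes, while the 3p labels can.

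The libraries held 19272046 to 25080484 reads, and the depths of the ages overlapped. Values are RPM, reads of a sequence after the authors scaled each library to the same total, and 3 reads were 0.12 to 0.156 RPM. In bulk tissue, fewer cells of a type and less RNA per cell cannot be told apart. Of 8 lists of miRNA markers for cell types or tissues, each had all its markers detected. The neuron markers summed to 177854 to 235808 RPM. The markers of epithelium, olfactory bulb and choroid plexus, which the labels do not name as tissue, summed to 28949 to 48013 RPM. They overlapped between the ages and were lowest in 18M replicate 3 and highest in 18M replicate 2. Only the list of microglia and immune cells did not overlap between the ages, with 3773 to 4107 RPM at 2M and 2828 to 3397 RPM at 18M, lower at 18M. The part of these lists in the results below was not tested.

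mmu-miR-26a-5p dominated the family. With a mean of 42851 RPM it ranked 3 among all miRNA labels and made up 4.29% of all reads. mmu-miR-26b-5p followed at rank 61 with a mean of 2841 RPM. The 3p labels were far lower, at 9.05 RPM for mmu-miR-26a-2-3p (rank 484), 7.51 RPM for mmu-miR-26b-3p (rank 498) and 3.11 RPM for mmu-miR-26a-1-3p (rank 575). In each library mmu-miR-26a-5p was 13.1 to 16.8 times as abundant as mmu-miR-26b-5p, so these neighbours in the order never overlapped. mmu-miR-26a-2-3p exceeded mmu-miR-26a-1-3p by 2.22 to 3.57 times within a library. The levels of mmu-miR-26a-2-3p and mmu-miR-26b-3p overlapped at 18M, from 9.96 to 10.7 RPM against 6.95 to 10.8 RPM.

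The first question was whether the members differed between young and old brains. mmu-miR-26a-5p was at 46229, 37571 and 39874 RPM in 2M replicates 1, 2 and 3, and at 40828, 50883 and 41724 RPM in 18M replicates 1, 2 and 3. The groups overlapped, and the highest library was 18M replicate 2. The 2M mean was 41224 ± 4484 RPM and the 18M mean 44478 ± 5564 RPM (SD, n = 3). limma, fitted to log2(RPM + 1) over all labels with a mean of at least 10 RPM, gave a log2 fold change of 0.11 with a standard error of 0.13 and a Benjamini-Hochberg adjusted p of 0.707. The 95% interval ran from -0.20 to 0.42, which leaves a difference in either direction possible.

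mmu-miR-26b-5p was at 2836, 2477 and 2379 RPM in the 2M libraries and at 2877, 3286 and 3189 RPM in the 18M libraries. Every 18M library lay above every 2M library, with a narrow gap between 2M replicate 1 and 18M replicate 1. The means were 2564 ± 240 RPM and 3117 ± 214 RPM (SD, n = 3). Its log2 fold change was 0.28 with a standard error of 0.13, a ratio of 1.22 between 18M and 2M. The adjusted p was 0.303 with limma, the unadjusted p from the same limma model was 0.0637, and the 95% interval ran from -0.02 to 0.59. By the threshold of 0.05 on the adjusted p, 0 of the 2 members in this fit were called, against 23 of the 474 labels tested (4.85%), of which 2 were higher at 18M. At an unadjusted p under 0.05, 85 of the 474 labels and 0 of the 2 members passed. edgeR on the recovered whole reads called 14 labels, 2 of them higher at 18M, and DESeq2 called 46, 15 of them higher, with 0 of the members in either. The median log2 fold change of all 474 labels was -0.07.

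The 3p members were below 10 RPM and were taken from the fit over labels with a mean of at least 1 RPM, which called 22 of 708 labels (3.11%) and 0 of the 3 members, and in which 126 labels passed at an unadjusted p under 0.05, mmu-miR-26a-2-3p among them. mmu-miR-26a-2-3p was at 8.57, 7.65 and 7.10 RPM at 2M and at 9.96, 10.7 and 10.4 RPM at 18M, without overlap. These values rest on 149 to 250 reads per library. Its log2 fold change was 0.37 with a standard error of 0.12, and its adjusted p in limma was 0.159. mmu-miR-26b-3p, from the other hairpin with the same 3p seed, was at 5.38, 6.30 and 7.10 RPM at 2M and at 8.56, 6.95 and 10.8 RPM at 18M. Its groups overlapped through 18M replicate 2, and the log2 fold change was 0.42 with a standard error of 0.18 and an adjusted p of 0.282 in limma. Without 18M replicate 3 it was 0.27. mmu-miR-26a-1-3p was at 3.29, 2.43 and 3.19 RPM at 2M and at 3.63, 2.99 and 3.15 RPM at 18M, on 61 to 70 reads per library. Its log2 fold change was 0.10 with a standard error of 0.14 and an adjusted p of 0.718 in limma, and its groups overlapped. Without 2M replicate 2 it was 0.0025. Thus 2 of the 5 members had every 18M library above every 2M library, where 44 of the 708 labels did (6.21%). The fold changes of these low labels are understated by the added 1 RPM.

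**Figure D1:**
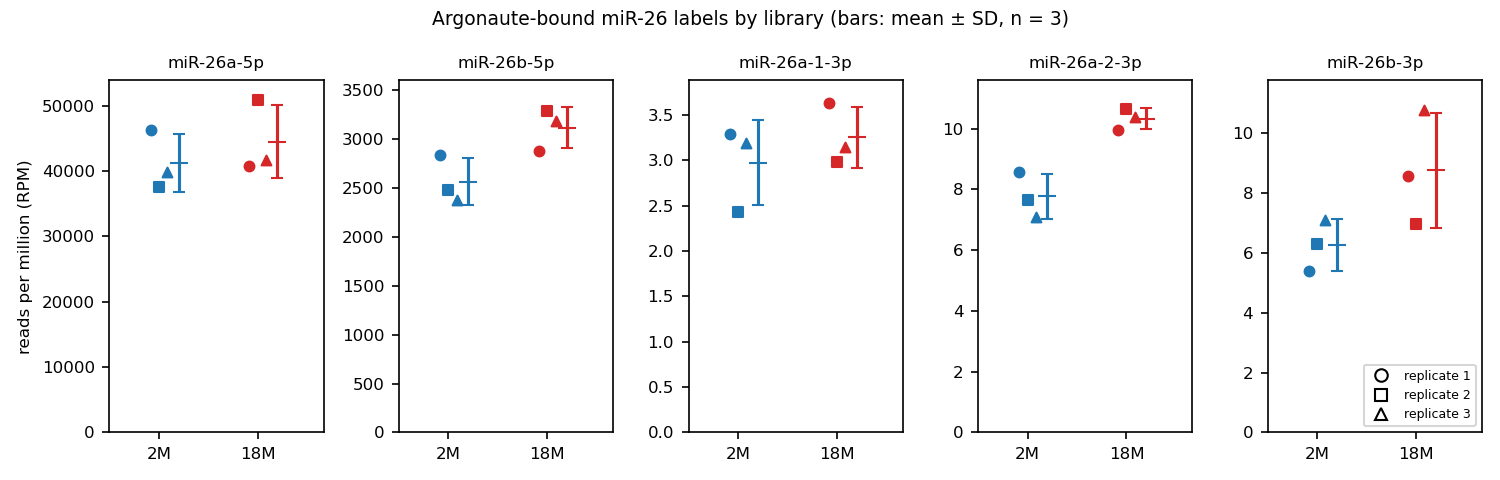
RPM of the 5 miR-26 labels in each library of the 2M and 18M groups, with the mean and SD (n = 3) beside the points and a separate linear axis from 0 for each label. The 18M points of miR-26b-5p and miR-26a-2-3p lie above all their 2M points, while those of the other 3 labels overlap with 2M.

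The study reads small RNAs by their 6mer seed, positions 2 to 7, and gives each seed a viability, the percent of cells, relative to control, that survive an siRNA with that seed in mouse cell lines. The seed UCAAGU of the 5p members has a viability of 43% in the table. In the 2M libraries, reads with this seed summed to 43306 ± 4713 RPM, and in the 18M libraries to 47106 ± 5626 RPM (SD, n = 3), with overlap, and 98.6% of them carried a member label. The rest can include reads of a mir-26 hairpin without a miRNA label. Within mmu-miR-26a-5p the seed UCAAGU held 97.2% to 97.6% of reads in each library. A start 1 base later gives CAAGUA, with a viability of 72.7%, which held 1.0% of mmu-miR-26a-5p and 0.922% of mmu-miR-26b-5p. A start 1 base earlier gives UUCAAG, with a viability of 68.2%, which held 0.614% and 0.540%. The share of reads with any shifted 5′ end was 2.22% ± 0.202 at 2M and 2.13% ± 0.0598 at 18M for mmu-miR-26a-5p and 1.82% ± 0.0868 and 1.80% ± 0.134 for mmu-miR-26b-5p (SD, n = 3). Both overlapped between the ages. On the 3p side, CUAUUC of mmu-miR-26a-1-3p has a viability of 69%, and CUGUUC of mmu-miR-26a-2-3p and mmu-miR-26b-3p has 53%.

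Next, the arms held by Argonaute were compared. mmu-miR-26b-5p exceeded mmu-miR-26b-3p by 296 to 527 times, and mmu-miR-26a-5p exceeded both of its 3p labels together by 3004 to 3898 times. Among 231 hairpin names with both arms at a mean of at least 1 RPM, the log2 ratio of 3p to 5p of miR-26a-1 and of miR-26a-2 lay farthest from 0, at -13.35 and -12.06, and that of miR-26b ranked 16, at -8.40. Arms were paired by label name, and miR-26a alone was also paired across labels with and without a gene number. Other hairpins whose arm labels differ in this way, and those with an arm under 1 RPM, are missing from the ranking. The median distance from 0 over all 231 was 3.64. The shared mmu-miR-26a-5p label stands against each 3p label of miR-26a, so its ratios hold the 5p reads of both genes. With age, the log2 ratio of 3p to 5p differed by 0.00 ± 0.19 (SE) for miR-26a-1, by 0.26 ± 0.17 for miR-26a-2 and by 0.13 ± 0.24 for miR-26b. Their adjusted p-values in limma were 0.989, 0.755 and 0.989. limma called 0 of the 231 hairpins (0%), and 17 of the 231 and 0 of these 3 passed at an unadjusted p under 0.05. mmu-miR-26a-2-3p made up 72.4% ± 3.45 of the miR-26a 3p reads at 2M and 76.0% ± 2.49 at 18M (SD, n = 3), with overlap (exact permutation test, p = 0.2). mmu-miR-26b-5p made up 5.78%, 6.19% and 5.63% of the 5p reads at 2M and 6.58%, 6.07% and 7.10% at 18M. These groups overlapped, and an exact permutation test gave p = 0.2 and an adjusted p of 0.5 over the 20 shares compared within the family. The smallest p that 3 against 3 libraries allow in this two-sided test is 0.1.

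Each member was a set of reads that differ mainly at the 3′ end. The most abundant reads of each member are shown so that their 3′ ends can be compared. They are read sequences of the deposited table, with bases that the hairpin does not hold at that place in capitals:
mmu-miR-26a-5p read 1: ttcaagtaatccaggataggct
mmu-miR-26a-5p read 2: ttcaagtaatccaggataggc
mmu-miR-26a-5p read 3: ttcaagtaatccaggatagg
mmu-miR-26a-5p read 4: ttcaagtaatccaggataggctT
mmu-miR-26a-5p read 5: ttcaagtaatccaggataggcA
mmu-miR-26b-5p read 1: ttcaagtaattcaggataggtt
mmu-miR-26b-5p read 2: ttcaagtaattcaggataggt
mmu-miR-26b-5p read 3: ttcaagtaattcaggataggttT
mmu-miR-26b-5p read 4: ttcaagtaattcaggataggttA
mmu-miR-26a-1-3p read 1: cctattcttggttacttgcacg
mmu-miR-26a-1-3p read 2: cctattcttggttacttgcac
mmu-miR-26a-2-3p read 1: cctgttcttgattacttgtttc
mmu-miR-26a-2-3p read 2: cctgttcttgattacttgttt
mmu-miR-26b-3p read 1: cctgttctccattacttggct
mmu-miR-26b-3p read 2: cctgttctccattacttggctc

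The 22 nt read 1 of mmu-miR-26a-5p held 46.9% of the label's reads, and the 21 and 20 nt reads 2 and 3 held 22.9% and 12.7%. Reads 4 and 5, with an added U or A, held 3.90% and 2.84%. In mmu-miR-26b-5p the 22 nt read 1 held 61.1% and the 21 nt read 2 held 20.4%. The 2 reads shown held 73.7% and 11.1% of mmu-miR-26a-1-3p, 56.1% and 35.7% of mmu-miR-26a-2-3p and 34.4% and 28.5% of mmu-miR-26b-3p. The RefSeq sequence of mmu-miR-26b-5p is 21 nt long, 1 base shorter than its most abundant read. The main read was a smaller share of mmu-miR-26a-5p than of mmu-miR-26b-5p in every library, at 44.7% to 49.4% against 58.7% to 64.5%.

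Among these reads, read 2 of mmu-miR-26b-5p was at 539, 425 and 514 RPM at 2M and at 645, 678 and 671 RPM at 18M. Its groups did not overlap, and its means were 493 ± 60.0 and 664 ± 17.5 RPM (SD, n = 3). The log2 fold change was 0.44 with a standard error of 0.16 and an adjusted p of 0.306 in limma over 3281 read sequences. Read 2 of mmu-miR-26a-2-3p, which lacks the last C of read 1, was at 2.24, 2.83 and 1.57 RPM at 2M and at 3.99, 4.35 and 4.43 RPM at 18M, also without overlap. In the fit at 1 RPM its log2 fold change was 0.73 with a standard error of 0.19 and an adjusted p of 0.238 in limma. The 2M mean of read 1 of mmu-miR-26a-2-3p was 5.0 ± 0.849 RPM and its 18M mean 5.16 ± 0.510 RPM (SD, n = 3), with overlap. Most of the difference in mean level of this 3p member thus lay in its shorter read. Read 2 of mmu-miR-26b-3p was at 1.72, 1.59 and 1.76 RPM at 2M and at 2.59, 2.09 and 3.11 RPM at 18M. Its groups did not overlap either, but it is the longer read shown of its label. The log2 fold change was 0.41 with an adjusted p of 0.433 in limma. The shorter read 1 of mmu-miR-26b-3p averaged 2.05 ± 0.749 and 3.12 ± 0.712 RPM (SD, n = 3), with overlap. How often reads this rare separate by age was not examined. The mean length of mmu-miR-26a-2-3p reads was 21.67, 21.60 and 21.70 nt at 2M and 21.55, 21.50 and 21.44 nt at 18M, without overlap. In limma the difference was -0.16 nt with a standard error of 0.04 and an adjusted p of 0.321.

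The mean length of the 5p members was 21.5 nt at both ages for mmu-miR-26a-5p and 21.8 nt at both ages for mmu-miR-26b-5p. The differences of -0.02 and -0.04 nt had standard errors of 0.03 each and adjusted p-values of 0.830 and 0.593 in limma. limma called 0 of 474 labels (0%) for mean length, with 69 at an unadjusted p under 0.05 and neither 5p member among them. With the labels down to 1 RPM it called 0 of 706 (0%), with 92 at an unadjusted p under 0.05, mmu-miR-26a-2-3p among them. Reads of 20 nt were 13.0% ± 0.0734 of mmu-miR-26a-5p at 2M and 14.0% ± 0.724 at 18M, and reads of 23 nt were 6.76% ± 0.144 and 7.05% ± 0.116 (SD, n = 3). Neither of these lengths overlapped between the ages. Among the rare lengths, reads of 18 nt (0.128% and 0.15%) were higher at 18M and reads of 25 nt (0.131% and 0.122%) lower, also without overlap. The length shares of a label add up to its total and are not independent. How often such shares separate by age in other labels was not examined. Reads of 22 nt were 51.6% ± 1.28 and 50.5% ± 1.93 and overlapped. In mmu-miR-26b-5p, reads longer than the main read were 11.1% ± 0.394 at 2M and 10.4% ± 0.303 at 18M, lower at 18M without overlap, while in mmu-miR-26a-5p they were 7.93% ± 0.229 and 8.31% ± 0.114, higher without overlap (SD, n = 3). For either share the exact permutation test gave p = 0.1, which was 0.5 after adjustment over the 20 shares.

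**Figure D2:**
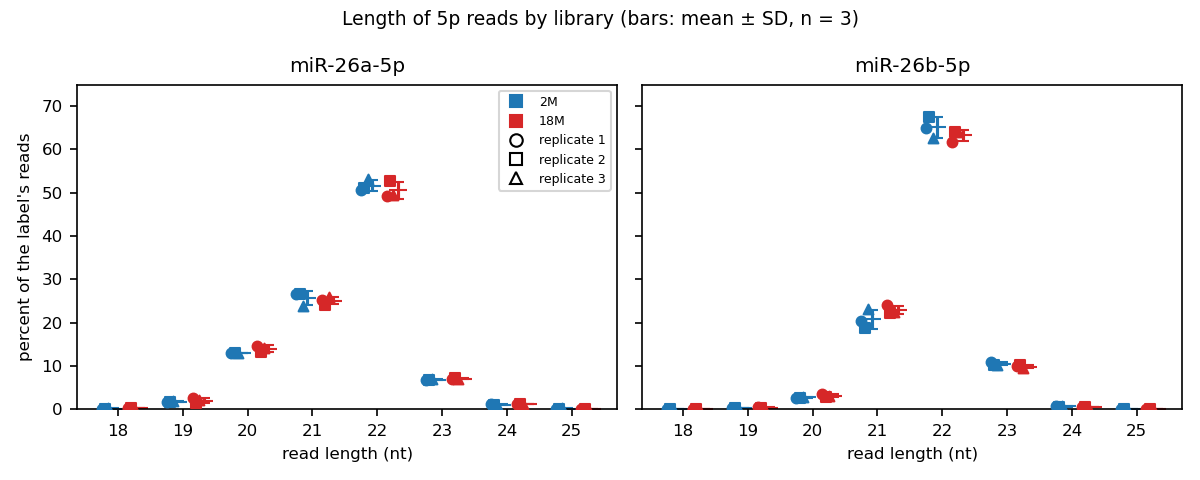
Percent of the reads of miR-26a-5p and miR-26b-5p at each length from 18 to 25 nt in each library, with the mean and SD (n = 3). Both labels peak at 22 nt, miR-26a-5p has more reads of 20 nt (13.0% and 14.0% at 2M and 18M) than miR-26b-5p (2.71% and 3.13%), and the ages lie close together at each length.

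The added bases were then sorted by kind. A tail was the last 1 to 3 bases of a read, counted from the first base that the hairpin does not hold there. Later bases of a tail can match the hairpin, as in ttcaagtaatccaggatagTCT. A single added base cannot be told apart from a changed base at the last position. Reads with a changed base shortly before the end also count as tailed, mainly among the other and U tails. The share of mmu-miR-26a-5p reads with an A tail was 6.26%, 5.99% and 5.63% at 2M and 7.22%, 7.01% and 7.40% at 18M. Every 18M library lay above every 2M library. The means were 5.96% ± 0.318 and 7.21% ± 0.196 (SD, n = 3), a difference of 1.25 percentage points (exact permutation test, p = 0.1, and 0.5 adjusted over the 20 shares). The share of mmu-miR-26b-5p reads with an A tail was 5.64%, 5.63% and 6.18% at 2M and 6.12%, 5.79% and 5.67% at 18M, which overlapped (exact permutation test, p = 0.8).

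The difference between the 5p members was tested within libraries, a comparison added after seeing the data. The A tail share of mmu-miR-26a-5p minus that of mmu-miR-26b-5p was 0.620, 0.361 and -0.556 points at 2M and 1.09, 1.22 and 1.73 points at 18M. These did not overlap either (exact permutation test, p = 0.1). U tails were 4.87% ± 0.105 and 4.83% ± 0.190 of mmu-miR-26a-5p and 5.30% ± 0.455 and 4.84% ± 0.222 of mmu-miR-26b-5p at 2M and 18M (SD, n = 3), and both overlapped between the ages. A U added where the hairpin itself holds U counts as a hairpin base. No U tail can thus be seen after positions 21 and 23 of mmu-miR-26a-5p or after 20, 21 and 23 of mmu-miR-26b-5p. The U shares are therefore lower bounds that miss different ends in each member. Tails of other or mixed bases were 1.56% ± 0.186 of mmu-miR-26a-5p at 2M and 1.91% ± 0.0590 at 18M, without overlap (exact permutation test, p = 0.1).

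A tails also moved over the whole table, whose values stand beside those of the family. Over all 474 labels with a mean of at least 10 RPM, A-tailed reads were 3.86% to 4.52% of each library's reads at 2M and 4.67% to 5.0% at 18M. The A tail share was separated between the ages, higher at 18M, in 78 of the 474 labels (16.5%), of which mmu-miR-26a-5p was one and mmu-miR-26b-5p was not. mmu-miR-26a-5p ranked 73 and mmu-miR-26b-5p ranked 319 by the size of the difference, and the median difference was 0.333 points. On the scale of log2 odds, 76.4% of labels were higher at 18M, with a median difference of 0.14. mmu-miR-26a-5p differed by 0.30 with a standard error of 0.11 and an adjusted p of 0.336 in limma, and mmu-miR-26b-5p by 0.01 with a standard error of 0.11 and an adjusted p of 0.975. limma called 0 of the 474 labels (0%) for A tails and 0 (0%) for U tails. At an unadjusted p under 0.05 there were 62 labels for A tails, mmu-miR-26a-5p among them, and 63 for U tails, neither 5p member among them. How much of the difference in mmu-miR-26a-5p belongs to the shift of all labels was not tested.

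**Figure D3:**
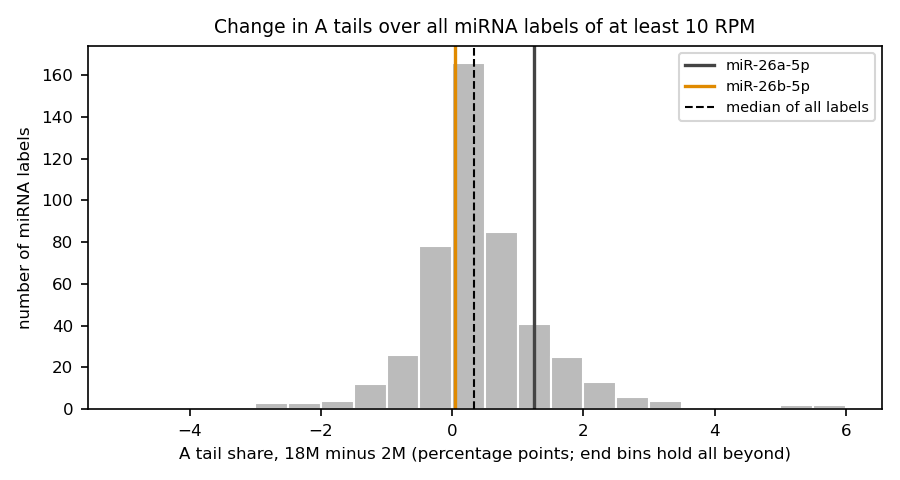
Number of miRNA labels of at least 10 RPM by the difference in their A tail share between 18M and 2M, in bins of 0.5 percentage points, with vertical lines for miR-26a-5p, miR-26b-5p and the median of all 474 labels. miR-26a-5p (1.25 points) lies to the right of the median (0.333 points) and miR-26b-5p (0.0459 points) to its left.

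The A tail share of the 5p members differed between the hairpin positions after which the tail began. In mmu-miR-26a-5p, of the reads whose hairpin part ended at position 21, 11.1% ± 0.545 at 2M and 13.5% ± 0.294 at 18M carried an A tail (SD, n = 3), without overlap. Read 5 of mmu-miR-26a-5p, above, is the most abundant of them. After position 19 the share was 12.3% ± 0.927 and 16.7% ± 3.65, and after position 22 it was 2.32% ± 0.204 and 2.63% ± 0.0740, both without overlap. After position 20 it was 9.53% ± 2.01 and 10.7% ± 0.0352 (SD, n = 3), with overlap.

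In mmu-miR-26b-5p the shorter ends differed in the same direction. After position 19 the A tail share was 10.8% ± 0.836 at 2M and 14.2% ± 2.17 at 18M, and after position 20 it was 8.13% ± 0.766 and 10.4% ± 0.268 (SD, n = 3), both without overlap. After position 21 it was 8.06% ± 0.905 and 8.43% ± 0.257, and after position 22, where most of its reads end, it was 5.11% ± 0.565 and 4.74% ± 0.373, both with overlap. Position 22 thus carried fewer A tails than the shorter ends in both members. After position 23, where few reads end, the share was 7.81% ± 1.17 and 7.65% ± 0.558 in mmu-miR-26a-5p and 3.69% ± 1.56 and 3.29% ± 1.13 in mmu-miR-26b-5p (SD, n = 3), both with overlap. Each separated share had p = 0.1 in the exact permutation test and an adjusted p of 0.273 over the 30 shares by end and tail. Other labels were not split by end, and 76.4% of all labels had higher log2 odds of an A tail at 18M. The values after position 19 rest on means of 909 RPM for mmu-miR-26a-5p but 13.0 RPM for mmu-miR-26b-5p, and without 18M replicate 2 they differed by 2.45 and 2.27 points in place of 4.39 and 3.40. Without 2M replicate 3, the difference of mmu-miR-26a-5p after position 20 was 0.265 in place of 1.22 points, and without 2M replicate 2 that after position 22 was 0.193 in place of 0.305 points.

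**Figure D4:**
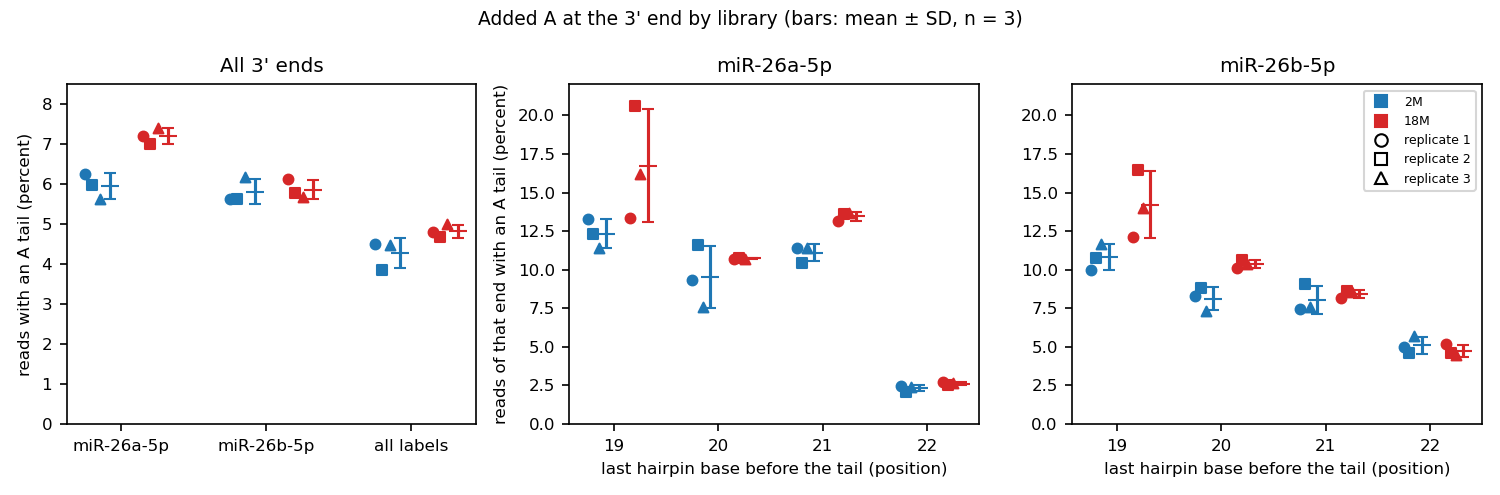
Percent of reads with an A tail in each library of 2M and 18M, for miR-26a-5p, miR-26b-5p and all labels together (left) and for reads grouped by the last hairpin position before the tail, 19 to 22 (middle and right), with the mean and SD (n = 3). The 18M points of miR-26a-5p lie above its 2M points (5.96% and 7.21% on average) while those of miR-26b-5p overlap (5.82% and 5.86%), and among these positions 22 has the lowest shares in both labels.

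A small share of reads joined the base of one 5p member at position 21 to the preceding bases of the other. Reads that followed mmu-miR-26a-5p to position 20 and then held the U of mmu-miR-26b-5p were 0.550%, 0.488% and 0.477% of the reads of 21 nt or more with those first 20 bases at 2M and 0.676%, 0.70% and 0.661% at 18M. Reads that followed mmu-miR-26b-5p to position 20 and then held the C of mmu-miR-26a-5p were 1.43%, 1.43% and 1.47% at 2M and 1.22%, 1.37% and 1.23% at 18M. The first set was higher at 18M and the second lower, both without overlap and neither tested. How often such shares separate by age in other labels was not examined. In the first set, a U added after position 20 gives the same read as a changed base. Tails of other bases after position 20 of mmu-miR-26b-5p, which can hold reads of the second set, made up 33.8% ± 0.888 in 2M against 27.9% ± 3.23 in 18M (SD, n = 3), without overlap (exact permutation test, p = 0.1, and 0.273 adjusted over the 30 shares).

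Single read sequences were tested next. Of the 1232 member reads, 69 had a mean of at least 10 RPM, and these held 98.5% of the family's reads. The others were below that level and not tested in this fit. limma called 0 of the 69, against 12 of 3281 over the whole table (0.366%), and 13 of the 69 and 428 of the 3281 passed at an unadjusted p under 0.05. Of the 69, 57 had a log2 fold change above 0, with a median of 0.16, where 52.5% of all 3281 did, with a median of 0.02. Reads of 1 miRNA share their source and are not independent. Every 18M library lay above every 2M library for 15 of the 69 reads, where 11.5% of all 3281 reads did, and below for 1, where 9.45% did.

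By 3′ end, the 12 A-tailed reads of both 5p members all had log2 fold changes above 0, from 0.13 to 1.12, with a median of 0.52. The 22 reads with hairpin bases only had a median of 0.11, with 19 above 0, and the 7 U-tailed reads had a median of 0.16, all above 0. The members differed in this. In mmu-miR-26a-5p the A-tailed reads had a median of 0.62 and the reads with hairpin bases only 0.05. In mmu-miR-26b-5p these medians were 0.48 and 0.31, and all 11 of its reads in any class were above 0. A-tailed reads of other labels were not counted in this way. Of the 14 reads with other tails 10 were above 0 and 4 below, with a median of 0.23, and of the 14 reads with an internal mismatch 9 were above and 5 below, with a median of 0.05. Internal here means before the last 3 bases, and in some of these reads the mismatch is the first base. The reads with the lowest unadjusted p are shown, chosen after their values were seen, with the tail in capitals:
20 nt read of mmu-miR-26a-5p: ttcaagtaatccaggatagA
23 nt read of mmu-miR-26a-5p: ttcaagtaatccaggataggAAA
22 nt read of mmu-miR-26b-5p: ttcaagtaattcaggataggtA

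The 20 nt read was at 102, 76.6 and 85.1 RPM at 2M and at 143, 170 and 156 RPM at 18M. Its groups were far apart, and its log2 fold change was 0.83 with a standard error of 0.17 and an adjusted p of 0.136 in limma. The 23 nt read was at 26.2, 11.4 and 16.4 RPM at 2M and at 41.6, 40.2 and 33.3 RPM at 18M, with a log2 fold change of 1.12, a standard error of 0.29 and an adjusted p of 0.194 in limma. The 22 nt read was at 29.9, 32.7 and 31.8 RPM at 2M and at 42.0, 44.3 and 46.3 RPM at 18M, with a log2 fold change of 0.48, a standard error of 0.13 and an adjusted p of 0.224 in limma. None of the 3 passed the threshold.

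**Figure D5:**
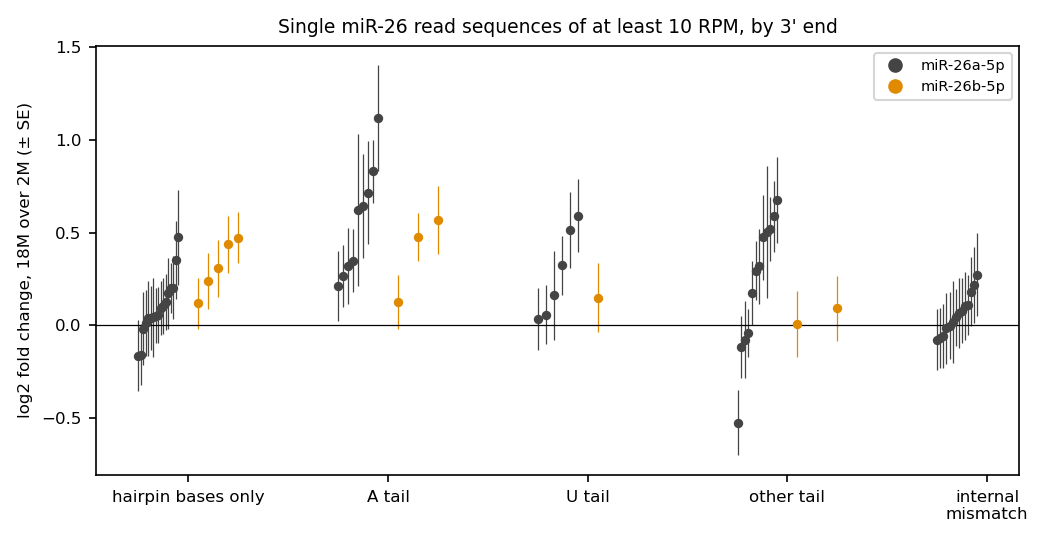
Log2 fold change (18M over 2M, on log2(RPM + 1), with SE) of the 69 miR-26a-5p and miR-26b-5p reads of at least 10 RPM, grouped by their 3′ end. All 12 A-tailed reads lie above 0, with a median of 0.52, while reads with hairpin bases only have a median of 0.11 and 1 read with another tail lies at -0.53. The 11 reads of miR-26b-5p lie above 0 in every class.

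To set the family beside its circuit, 7 labels known to act on REST, its cofactors or the Ctdsp phosphatases, or to be in that neuronal circuit, were read from the same fit. limma called 0 of the 7, against the 4.85% of all labels given above, and 2 of the 7 passed at an unadjusted p under 0.05, 1 in each direction. miR-9-5p, which acts on Rest mRNA, was at 46588, 25147 and 33531 RPM at 2M and at 41538, 56103 and 50277 RPM at 18M, with overlap, a log2 fold change of 0.53 and an adjusted p of 0.303 in limma. miR-124-3p, which acts on Ctdsp1 mRNA, was at 126188, 127742 and 128952 RPM at 2M and at 95824, 134320 and 92539 RPM at 18M, with overlap, a log2 fold change of -0.27 and an adjusted p of 0.395 in limma. miR-132-3p and miR-212-3p, which come from one transcript, had log2 fold changes of -0.22 and -0.29. miR-9-3p had -0.18. In these 3 of the 7 labels every 18M library lay below every 2M library, as it did in 19.2% of all 474 labels. The others overlapped, and miR-29a-3p and miR-29b-3p had 0.43 and 0.50.

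The labels whose levels followed mmu-miR-26a-5p most closely over the 6 libraries, out of 275 others with a mean of at least 100 RPM, were miR-210-3p, miR-320-3p, miR-92b-3p, miR-221-3p and miR-9-5p, with Pearson's r of log2(RPM + 1) from 0.80 to 0.85. mmu-miR-26b-5p ranked 12 with r = 0.72. The 6 points come from libraries of 2 ages and share the scaling to one total, so these values are a description. The closest, miR-92b-3p, ranged from 680 to 892 RPM in the 2M libraries and from 666 to 1118 RPM in the 18M libraries, and like mmu-miR-26a-5p it was highest in 18M replicate 2.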

How the data were processed

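Ago-bound small RNAs of 3 libraries of 2M and 3 of 18M were read from the deposited table of read sequences. According to the study's methods, the authors demultiplexed and trimmed reads (Trim Galore, by the submitters' processing notes, with the version not given in the sources used here), removed rare reads, matched the rest to lists of mouse small RNAs with SPOROS and scaled each library to the same total. The deposited values are thus RPM per read sequence. The deposited viability column is a score the authors attach to each 6mer seed, averaged over mouse cell lines. No other per-sample columns were found. All RPM values (100%) lay within 0.05 steps of whole multiples of 1 read, so whole reads were recovered. No molecular identifiers were used, so the floor of 3 reads covers counting error alone. No libraries were duplicates: the chi-square per degree of freedom was at least 387.

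The titles gave the groups. Labels, reads, arms, lengths and tails were fitted over the whole table with limma 3.58.1 (lmFit and eBayes, with trend for labels and reads) in R 4.3.3 on log2(RPM + 1), or on the ratio, length or log2 odds, and p-values were adjusted by Benjamini-Hochberg with calls under 0.05. Features had a mean of at least 10 RPM. The 3p members and the arms fell below this and were taken from the fit at 1 RPM. Shares were compared by an exact two-sided permutation test. On simulated reads with 4-fold changes, 40 of 40 changed labels were recovered and 12 of 435 unchanged labels called, and 200 of 200 changed reads were recovered and 9 of 3074 unchanged reads called. Among labels, 12 false calls beside 40 true ones are more than the 5% of calls that the adjustment aims at. The fitted ratios of the members were 1.07 to 1.33, so the recovery of 4-fold changes does not speak to changes of their size. Tails were found against RefSeq hairpins (376 of 474 labels) or GENCODE M21 miRNA transcripts, up to 3 bases long. Named reads were the 5, 4 and 2 most abundant of mmu-miR-26a-5p, mmu-miR-26b-5p and each 3p label. Likeness was by Pearson's r with mmu-miR-26a-5p. Members, lists and tests were chosen with earlier results of these data known. Alternative settings changed the pseudocount (0.1, 5), the lowest mean (1, 100 RPM), the scaling (median of ratios), the model (block by replicate number, limma without trend, edgeR 4.0.16, DESeq2 1.42.0), the reads used (single-label, 20 to 24 nt) or the libraries (each left out). Chosen after seeing the data were the fits of tails over all labels, tails by end, the comparison of A tails between the 5p members, a sign-flip block test of shares and rows without a miRNA label. Tables and plots used pandas 2.3.3 and numpy 2.4.6, with scipy 1.17.1 for exact tests and matplotlib 3.10.9 for plots, in Python 3.11.15.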

Additional observations from a re-analysis of the deposited data

Results flagged for a closer look

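Beyond the member rows, 821 read sequences had no miRNA label while the second annotation column placed them on a mir-26 hairpin. They summed to a mean of 809 RPM over the 6 libraries, above the 0.156 RPM that 3 reads are worth in the shallowest library, and they are outside the member rule. Their sum averaged 775 ± 79.7 RPM in the 2M libraries against 843 ± 92.7 RPM in the 18M libraries (SD, n = 3), with overlap. The 659 rows on the miR-26a hairpins held 729 ± 74.9 and 787 ± 89.0 RPM. The 162 rows on the miR-26b hairpin held 45.7 ± 4.92 RPM in the 2M libraries against 56.3 ± 4.12 RPM in the 18M libraries, without overlap.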

How the results depend on the processing

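Under every alternative run, no member had an adjusted p under 0.05, and all 5 stayed higher at 18M. The log2 fold change of mmu-miR-26a-5p lay between 0.01 and 0.21 over 18 alternatives, lowest without 18M replicate 2, and that of mmu-miR-26b-5p between 0.23 and 0.38 (adjusted p 0.0959 with DESeq2 to 0.535). Over 16 alternatives each, it lay between 0.0025 and 0.23 for mmu-miR-26a-1-3p, lowest without 2M replicate 2, between 0.26 and 0.51 for mmu-miR-26a-2-3p, and between 0.27 and 0.57 for mmu-miR-26b-3p, lowest without 18M replicate 3. Median-of-ratios scaling moved the median of all labels by 0.09 and gave 0.20 for mmu-miR-26a-5p and 0.38 for mmu-miR-26b-5p. The replicate numbers did not pair the samples, with correlations of -0.169, -0.221 and -0.1. With the replicate block, mmu-miR-26a-5p had 0.11 and mmu-miR-26b-5p 0.28 (adjusted p 0.775 and 0.444 in limma), and 1 label in place of 23 was called over the whole table. Other settings called 0 to 46 labels, with 2 at a mean of at least 100 RPM, 15 without trend, 15 with single-label reads and 15 with reads of 20 to 24 nt, and 0 to 15 when a library was left out. They called 0 to 20 reads, 0 to 6 labels for U tails and 0 to 4 for length. None of 116 alternatives for the named reads gave a call.

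Small differences changed direction, and the cause was not tested. The arm ratio of miR-26a-1 was 0.027 with a pseudocount of 0.1, and that of miR-26b was -8.12e-05 with a pseudocount of 5. Leaving out 1 library gave -0.12 to 0.14 and -0.032 to 0.31 for these ratios. It gave -0.045 to 0.014 for the log2 odds of a U tail in mmu-miR-26a-5p and -0.023 to 0.058 for an A tail in mmu-miR-26b-5p. For mmu-miR-26a-5p it gave log2 fold changes of -0.082 to 0.13 for read 1, -0.018 to 0.17 for read 2 and -0.10 to 0.11 for read 4, and shares of -0.0887 to 1.89 points for shorter reads, -0.168 to 0.0260 for shifted 5′ ends and -0.143 to 0.0456 for U tails. For mmu-miR-26b-5p it gave -0.0942 to 0.0316 points for shifted 5′ ends and -0.0843 to 0.228 for A tails. Leaving out 1 library kept the difference in A tails between the 5p members at 0.856 to 1.45 points. Depth limits the 3p members, which rest on 61 to 250 reads in a library.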

Other observations

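Reads that begin 1 base before mmu-miR-26a-5p were looked at because the hairpins of Mir26a-1 and Mir26a-2 hold different bases there. The read attcaagtaatccaggataggct, with the base of Mir26a-2, averaged 36.3 ± 3.35 RPM in the 2M libraries against 32.6 ± 5.08 RPM in the 18M libraries, and the read gttcaagtaatccaggataggct, with the base of Mir26a-1, averaged 14.2 ± 1.69 and 14.4 ± 2.25 RPM (SD, n = 3). The read cttcaagtaatccaggataggct, whose first base is in neither hairpin at that place, was higher than both, at 52.8 ± 1.27 and 51.2 ± 9.70 RPM, so the added base does not assign a read to a gene.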
